A study of Mus musculus with 71 samples.

Results

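The naive pluripotency transcription factors were followed here as a set of 10 genes chosen by name: Pou5f1, Sox2, Nanog, Klf2, Klf4, Klf5, Esrrb, Tfcp2l1, Tbx3 and Zfp42. Of the 21527 genes listed in each library, 9 belonged to the set, and Sox2 was not analysed here because no row carried its name. The study asked whether mRNAs become more or less stable when m6A is lost. Male mouse embryonic stem cells (mESCs) were labelled with 100 µM 4-thiouridine (s4U) for 24 h and then chased with an excess of uridine, and their 3′ ends were sequenced by SLAM-seq, in which s4U built into an RNA is read as a T-to-C conversion. From 6 h before the chase until harvest the medium held either 20 µM STM2457, an inhibitor of the m6A methyltransferase Mettl3, or the solvent DMSO as control. RNA was taken at 0, 1, 1.5, 2.3, 3.5, 5.3, 8 and 12 h of chase in both treatments, and from cells of both treatments without s4U. There were 4 libraries in each of these 18 groups, except for 3 in the STM2457 group at 3.5 h, which made 71 in all, and replicates were independent biological replicates by the study's methods. Every group shared 1 male mESC line, for which no genetic change is stated, grown on gelatin in 2i/LIF medium, which contains CHIR99021, a Gsk3 inhibitor, an inhibitor of Mek and the cytokine LIF, and seeded to be confluent at harvest. How long the unlabelled cells were in STM2457 or DMSO is not given in the sources used here. Cells harvested later in the chase had also been longer in STM2457, from 6 h to 18 h, so the 2 lengths of time cannot be told apart.

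Naive pluripotency is the state of the pre-implantation epiblast, and mESCs keep it in 2i/LIF medium. Pou5f1 (Oct4), Sox2 and Nanog form the core of its transcription factor circuit. LIF acts through Stat3 on Klf4 and Tfcp2l1, inhibition of Gsk3 by CHIR99021 relieves repression of Esrrb by Tcf7l1, and the Klf factors, Tbx3 and Zfp42 (Rex1) are further members of the circuit that are switched off when cells leave the naive state. The m6A mark is laid down by Mettl3 and its partner Mettl14, mostly near stop codons and in 3′ UTRs within the sequence GGAC followed by A, C or T, and it is known to promote decay of the mRNAs that carry it, Nanog mRNA being a known case in mESCs.

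The letters of this m6A motif were looked up in the reference transcripts of the set, taken from the principal annotated protein-coding transcript of each gene (GENCODE), because they are the sequence STM2457 bears on. Within the last 500 bases, where the 3′ reads lie, 9 of the 10 transcripts held at least 1 copy, against 72.5% of the 21363 protein-coding transcripts that are long enough. Tfcp2l1 held 3 copies, Pou5f1, Nanog, Klf5 and Esrrb held 2, Sox2, Klf2, Tbx3 and Zfp42 held 1, and Klf4 held none. The copy nearest to the transcript's end is shown for each, with the 5 motif letters in capitals and all sites in the 3′ UTR.
Pou5f1: aaagactgGGACAcacagtag
Sox2: tgaaatatGGACActgaaa
Nanog: tgccagctGGACTagtttaaa
Klf2: tcctgaggGGACAgggagcag
Klf5: ttatacgtGGACAcacctaca
Esrrb: ccctgtatGGACAtgtcctcc
Tfcp2l1: gcaaagggGGACCatttcaag
Tbx3: actgagagGGACTtggttcaa
Zfp42: ggggatggGGACTtttgcata
The sites lay 14 bases before the end of the Pou5f1 transcript, 11 in Sox2, 40 in Nanog, 264 in Klf2, 188 in Klf5, 100 in Esrrb, 349 in Tfcp2l1, 28 in Tbx3 and 290 in Zfp42. Over the whole transcript Esrrb was the richest member, with 6.20 copies per kb and 91.0% of all transcripts below it, and Zfp42 the poorest, with 1.63 copies per kb and 10.7% below it. The median of all transcripts was 3.498 copies per kb. A match of these letters is a description of the sequence, and whether a site was methylated was not measured in these libraries.

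Pou5f1 and Sox2 are known to bind DNA together at neighbouring motifs, so the promoters of the set, several of whose members moved together, were searched for these and for the motifs of Klf factors and Esrrb. Promoters (250 bases before to 50 after the start, RefSeq on GRCm38.p6) were held for 8 of the 10 genes, and the letters were searched on both strands. In at least 1 promoter each, Sox2, Nanog and Zfp42 held the octamer core TTTGCAT, read by Pou5f1, and Pou5f1, Nanog and Esrrb held the Sox core CATTGT. The Nanog promoter held both, 1 base apart (chr6:122707406-122707435, plus strand). It is shown with the octamer sites of Zfp42 (chr8:43307180-43307202, minus strand) and Sox2 (chr3:34649888-34649910, plus strand), with the matches in capitals.
Nanog promoter: cagcttctTTTGCATtACAATGtccatggt
Zfp42 promoter: aagaggcaTTTGCATaactgagc
Sox2 promoter: cccctttcATGCAAAaccctctg
Of all promoters of this length, 4.63% held TTTGCAT and 12.6% held CATTGT. The Klf motif GGGTGTGG, in 3.56% of all promoters, was found for Zfp42, and its variant GGGCGTGG, in 5.33%, for Nanog and Tfcp2l1. The Esrrb motif CAAGGTCA, in 1.56%, was found for no member. The Klf2 and Klf4 promoters held none of these motifs, which says only that the letters are not in those windows. The Pou5f1 promoter over the annotated gene start (chr17:35505782-35506081) held none either. Its CATTGT match lay in a second promoter, chr17:35508557-35508856. The Esrrb match lay 32 bases after the start, and the other Esrrb promoter (chr12:86421394-86421693) held none.

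The libraries held 4539726 to 7368244 reads each, with a median of 5726508, and 22.5% to 28.8% of them mapped to several places. Reads for members differed widely in number. Pou5f1 (chromosome 17, 35506018 to 35510772, plus strand of GRCm38) was counted with a median of 4579 reads per library, Klf2 (chromosome 8, 72319033 to 72321656, plus strand) with 3886, Nanog (chromosome 6, 122707489 to 122714633, plus strand) with 1317, Klf5 (chromosome 14, 99298691 to 99315036, plus strand) with 558 and Esrrb (chromosome 12, 86361117 to 86521628, plus strand) with 545. Zfp42 (chromosome 8, 43295063 to 43306980, minus strand) had a median of 309 reads, Tbx3 (chromosome 5, 119670669 to 119684724, plus strand) 204 and Tfcp2l1 (chromosome 1, 118627945 to 118685168, plus strand) 182. Klf4 (chromosome 4, 55527143 to 55532466, minus strand) lay near the detection limit with 0 to 50 reads and a median of 16. Reads were placed at up to 100 positions by the authors, and 95.7% of the Pou5f1 reads, 74.0% of the Zfp42 reads and 56.1% of the Klf4 reads mapped to more than 1 place. Values of these 3 genes are therefore uncertain, since pseudogene copies can share their reads, whereas the share was 3.46% for Nanog and smaller for the remaining members.

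Some libraries stood apart within their groups. A single axis, the first principal component of the deviations from the group means, held 41.3% of the within-group variance, and 11 libraries scored above 20 on it, of which 10 were from labelled cells at 1, 1.5 or 5.3 h of chase and 1 was unlabelled. High scores were found in both treatments at 1 h but only in DMSO at 1.5 and 5.3 h, so at those times the score moved with the treatment. Ranked by signed loading on this axis, Zfp42 lay above 96.8% of genes and Nanog above 87.8%. Tfcp2l1, Tbx3 and Pou5f1 lay between 44.2% and 70.1%. Esrrb (22.3%), Klf2 (17.7%) and Klf5 (4.54%) lay toward the other end of the axis. In size, the loading of Klf5 (-0.0296) exceeded that of Zfp42 (0.0194). No library scored high at 2.3, 3.5, 8 or 12 h. None scored above 20 at 0 h either, but DMSO replicate 1 came close to it there, at 19.8. The markers fitted the label of the cells: 15 of 16 naive mESC markers had a row and all had a median above 1 CPM (read counts scaled by the trimmed mean of M values, TMM, to a common library size), with a summed level of 4312 to 6852 CPM in DMSO and 4942 to 6909 CPM in STM2457. Of these 15, 9 are the members themselves, and Dppa5a, with a median of 2719 CPM, made up much of the sum. Formative or primed markers summed to only 13.9 to 113.1 CPM and 17.4 to 84.8 CPM, but 5 of the 6 also had a median above 1 CPM. The highest median among them was that of T, at 14.8 CPM, while Klf4 of the naive list had 2.66 CPM. A median above 1 CPM alone thus did not set these lists apart, and the sums did. Primitive endoderm markers summed to at most 12.6 CPM, 2-cell-like markers to at most 2.55 CPM and fibroblast markers to at most 24.3 CPM, with Postn at 0 in every library. Trophectoderm markers summed to 84.1 to 163.4 CPM and 95.8 to 156.3 CPM, of which only Tfap2c and Cdx2 had a median above 1 CPM, both also known in mESCs. Of 4 neural markers 1 had a row, Nes, with a median of 16.8 CPM. Mettl3 mRNA itself differed by -0.05 on the log2 scale between the treatments (edgeR, adjusted p = 0.634), which is no check of an inhibitor of the enzyme's activity.

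Averaged over the chase, 6 of the 9 members with a row were higher under m6A depletion and none was lower. Klf2, a zinc-finger factor of the naive circuit, was 1.56-fold higher (log2 difference 0.64, SE 0.05, edgeR adjusted p = 1.04e-17). Esrrb, a nuclear receptor that sustains self-renewal, was also 1.56-fold higher (0.64, SE 0.05, edgeR adjusted p = 3.13e-19). Zfp42 was 1.62-fold higher (0.69, SE 0.07, edgeR adjusted p = 3.54e-12), and Tbx3, a T-box factor, 1.37-fold (0.45, SE 0.07, edgeR adjusted p = 9.85e-08). The homeodomain factor Nanog was 1.28-fold higher (0.36, SE 0.04, edgeR adjusted p = 2.28e-11) and Tfcp2l1, a target of LIF signalling, 1.26-fold (0.33, SE 0.06, edgeR adjusted p = 1.46e-05). The other members were not called at an adjusted p below 0.01 in edgeR's quasi-likelihood test, with Klf5 at 0.18 (SE 0.09, adjusted p = 0.102) and Klf4 at 0.09 (SE 0.26, adjusted p = 0.823). Pou5f1 differed by 0.00, with a 95% interval of -0.05 to 0.06. Of the 12659 genes tested, 13.8% were called higher in this comparison. The median difference of the 9 members was 0.36 and that of all genes -0.01. In such bulk samples, fewer cells expressing a gene and less of its RNA per cell cannot be told apart. The same 6 genes were called when the average was taken over 2.3, 3.5, 8 and 12 h alone, where no library scored high. The log2 differences were 0.95 for Zfp42, 0.79 for Klf2, 0.55 for Esrrb, 0.54 for Tbx3 and for Tfcp2l1 and 0.51 for Nanog. This average leaves out 0 h, where no library scored above 20 either (highest 19.8), and gives later times more weight.

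**Figure D1:**
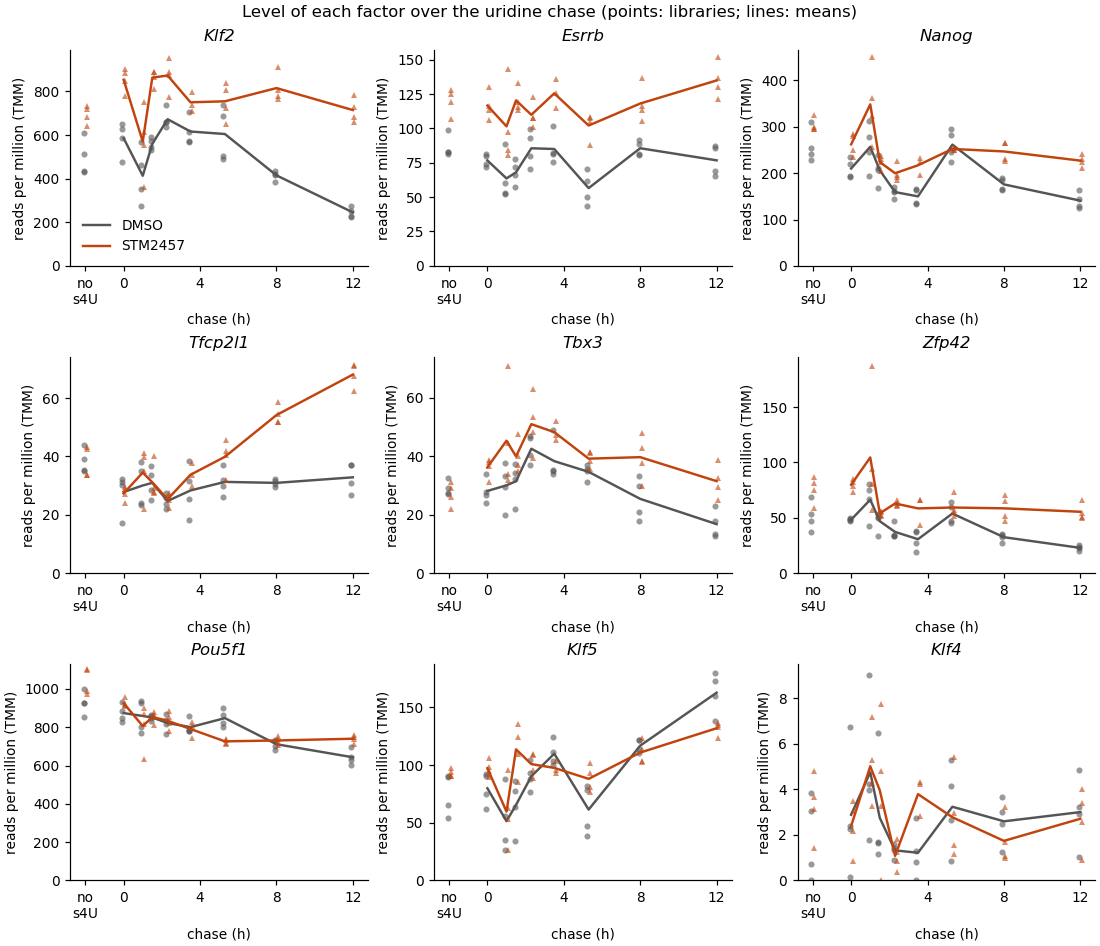
Level of each member with a row (CPM, scaled by TMM) against hours of chase, with 1 point per library, lines through the group means, and unlabelled libraries set apart at the left; DMSO and STM2457 are drawn in different colours. At 12 h the Klf2 libraries lie between 222.4 and 276.2 CPM in DMSO and between 660.2 and 785.5 CPM in STM2457, and the mean of Tfcp2l1 in STM2457 goes from 27.3 CPM at 0 h to 68.1 CPM at 12 h.

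At the onset of the chase, after 6 h of STM2457, the clearest difference was that of Esrrb. Its 4 libraries read 71.6, 74.0, 80.0 and 81.3 CPM in DMSO and 106.3, 116.3, 113.3 and 130.4 CPM in STM2457. The groups did not overlap, and Esrrb was the only member called (0.60, SE 0.14, edgeR adjusted p = 0.00331), among 1.27% of genes called higher. This call was lost without DMSO replicate 2, STM2457 replicate 2 or STM2457 replicate 4, with adjusted p = 0.0178 to 0.0278 in edgeR. Klf2 read 476.7, 587.3, 629.3 and 649.2 CPM in DMSO and 780.3, 849.3, 902.3 and 883.4 CPM in STM2457 (0.54, edgeR adjusted p = 0.0108). Zfp42 read 49.2, 46.7, 47.6 and 49.6 CPM in DMSO and 82.5, 85.2, 73.1 and 78.6 CPM in STM2457 (0.73, edgeR adjusted p = 0.0259). These 2 groups of values and those of Nanog (0.32, adjusted p = 0.117) did not overlap between treatments either but missed the threshold, and 5.94% of all genes did not overlap in this direction. With the library score in the fit, a setting chosen after seeing the data, Klf2 (0.41), Nanog (0.43) and Zfp42 (0.90) were called beside Esrrb (0.49). Tfcp2l1 showed no such difference at the onset, at -0.03 (SE 0.18), with overlapping groups.

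After 12 h of chase, 6 of the 9 members were higher in STM2457 and none was lower, where 3.92% of all genes were called higher. Klf2 had the largest estimate of the 9. It read 222.4, 228.7, 276.2 and 253.9 CPM in DMSO and 785.5, 684.3, 728.8 and 660.2 CPM in STM2457. The lowest STM2457 library was thus above the highest DMSO library by more than the spread of either group, and the fold was 2.91 (log2 1.54, SE 0.14, edgeR adjusted p = 3.25e-13). Zfp42 read 19.7, 23.3, 25.8 and 22.4 CPM in DMSO and 66.5, 49.8, 50.9 and 54.5 CPM in STM2457 (1.28, SE 0.21, edgeR adjusted p = 7.44e-06). Tfcp2l1 read 26.8, 36.9, 30.8 and 36.9 CPM in DMSO and 62.5, 71.3, 67.6 and 70.9 CPM in STM2457 (1.05, SE 0.18, edgeR adjusted p = 6.37e-06). Neither gene overlapped between the treatments. Tbx3 read 17.7, 23.1, 13.5 and 12.7 CPM in DMSO and 32.6, 38.6, 29.6 and 25.1 CPM in STM2457 (0.91, SE 0.20, edgeR adjusted p = 0.000782). Its call was lost without STM2457 replicate 2 (0.80, edgeR adjusted p = 0.0123). Esrrb read 85.4, 87.5, 65.3 and 68.9 CPM in DMSO and 130.1, 151.7, 136.5 and 121.2 CPM in STM2457 (0.81, SE 0.14, edgeR adjusted p = 7.35e-06). Nanog read 144.4, 164.6, 129.9 and 123.9 CPM in DMSO and 231.5, 211.6, 240.5 and 224.7 CPM in STM2457 (0.69, SE 0.12, edgeR adjusted p = 8.16e-06). Both were above in every STM2457 library. Cdx2, the trophectoderm factor among the markers above, was also 2.16-fold higher at 12 h (log2 1.11, SE 0.24, edgeR adjusted p = 0.000507) and differed by -0.01 at 0 h, and its part in these results was not tested.

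The remaining 3 members were not called at 12 h. Pou5f1 read 644.3, 628.1, 602.9 and 697.6 CPM in DMSO and 759.1, 712.4, 739.9 and 748.9 CPM in STM2457, which did not overlap but differed by 0.20 (SE 0.08, edgeR adjusted p = 0.0907). With reads that mapped to 1 place, few as they are for Pou5f1, the difference was 0.03, and it was 1.70 for Zfp42, so the value of Pou5f1 rests on its multimapping reads. Klf5, a factor that mESCs share with trophectoderm, was the only member lower in every STM2457 library, at 134.7, 133.2, 123.5 and 136.1 CPM against 179.5, 159.7, 172.8 and 138.6 CPM in DMSO, and the difference of -0.30 (SE 0.24, edgeR adjusted p = 0.509) did not pass the test. Klf4 differed by -0.14 (edgeR, adjusted p = 0.945) at levels of at most 9.04 CPM, where no difference of moderate size was detectable at this depth. Groups did not overlap in the higher direction for 7 of the 9 members and for 9.21% of all genes. In the lower direction they did not overlap for Klf5 alone of the 9, and for 8.7% of all genes. The median difference of the members was 0.81, and that of all genes -0.03.

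**Figure D2:**
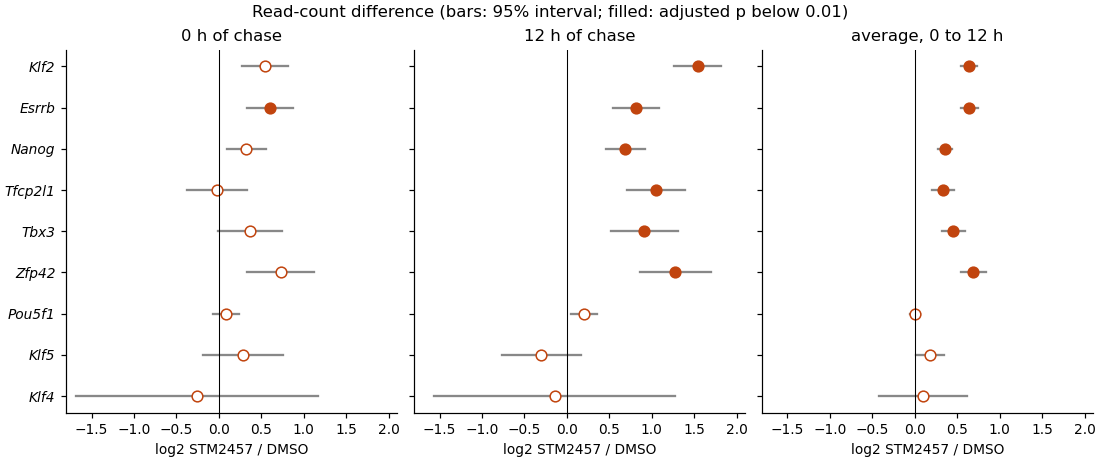
Log2 difference in level of STM2457 against DMSO for each member with a row (edgeR) at 0 h, at 12 h and averaged over the chase. Points are estimates, bars are 95% intervals, and filled points are members called at an adjusted p below 0.01. The value for Klf2 reaches 1.54 at 12 h, whereas Pou5f1 differs by 0.08 at 0 h, 0.20 at 12 h and 0.00 on average.

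Between these ends, single time points called few members. Esrrb was called at 1 h (0.68, edgeR adjusted p = 0.000831), where 1.15% of genes were called higher, at 1.5 h (0.82, adjusted p = 1.41e-05) and at 5.3 h (0.85, adjusted p = 1.05e-05). Its groups did not overlap at any time but 1 h. At the other chase times, from 5.94% (0 h) to 11.5% (1.5 h) of all genes did not overlap in the higher direction. The call on Esrrb at 1 h was lost without DMSO replicate 2, DMSO replicate 4 or STM2457 replicate 3. With the library score in the fit Esrrb was called at 1, 1.5 and 5.3 h too. Klf2 was called at 1.5 h (0.63, edgeR adjusted p = 0.000844), where 3.91% of genes were called higher, and not when the library score was in the fit. At 2.3 h, where no library scored high and 1.26% of genes were called higher, no member passed in the edgeR fit over all groups or in DESeq2, with Zfp42 at 0.76 (edgeR adjusted p = 0.0215), Klf2 at 0.38 (adjusted p = 0.126), Esrrb at 0.36 (adjusted p = 0.145) and Nanog at 0.33 (adjusted p = 0.114), the 4 at an unadjusted p below 0.05. Zfp42, Klf2 and Nanog passed there when only the groups compared were fitted, and also with the library score in the fit. At 3.5 h, with 3 STM2457 libraries and 1.03% of genes called higher, Nanog (0.53, edgeR adjusted p = 0.00562) and Zfp42 (0.93, edgeR adjusted p = 0.00779) were called. Both calls at 3.5 h were lost without DMSO replicate 2, STM2457 replicate 2 or STM2457 replicate 3, that of Nanog also without STM2457 replicate 1 or DMSO replicate 3, and that of Zfp42 also without DMSO replicate 1 or DMSO replicate 4. Esrrb alone was called at 5.3 h, beside 2.35% of genes, a share that went from 1.14% without DMSO replicate 4 to 5.94% without DMSO replicate 1. At 8 h, 1.79% of genes were called higher and 4 members were: Klf2 (0.97, edgeR adjusted p = 7.99e-07), Zfp42 (0.85, adjusted p = 0.00612), Tfcp2l1 (0.81, adjusted p = 0.00144) and Nanog (0.49, adjusted p = 0.00413). Of these, Klf2 and Tfcp2l1 were called whichever replicate was left out, Nanog was lost without DMSO replicate 2 or 3 or STM2457 replicate 1 or 2, and Zfp42 without any of those 4 or DMSO replicate 1 or 4. Scaling to total counts ended the calls on Nanog and Zfp42 at both 3.5 and 8 h, and those on Zfp42 also ended without a filter on low counts or with reads mapped to 1 place. In cells that never received s4U, no member passed the test in either direction in the edgeR fit over all groups or in DESeq2, where 2.61% of genes did by edgeR (1.06% without DMSO replicate 4) and 5 members were at an unadjusted p below 0.05. Zfp42 and Nanog passed with the library score in the fit, Esrrb without DMSO replicate 1 and Klf2 without DMSO replicate 2. The values there were 0.48 for Klf2 (edgeR, adjusted p = 0.0213), 0.47 for Esrrb (adjusted p = 0.0255) and 0.56 for Zfp42 (adjusted p = 0.0883).

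Klf2 and Tfcp2l1 differed more between treatments at 12 h than at the onset, as tested by the difference of the differences, which called 0.916% of all genes in this direction. For Klf2 the change was 1.00 (SE 0.20, edgeR adjusted p = 0.000656), lost without STM2457 replicate 1 (0.91, adjusted p = 0.0141). For Tfcp2l1 it was 1.08 (SE 0.25, edgeR adjusted p = 0.00549). The call on Tfcp2l1 was lost when DMSO replicate 2 or 3 or STM2457 replicate 1, 2 or 4 was left out, with adjusted p = 0.0135 to 0.0403 and a change of 1.00 to 1.16. Tbx3 (0.55, edgeR adjusted p = 0.373), Zfp42 (0.55, adjusted p = 0.399), Nanog (0.37, adjusted p = 0.28), Esrrb (0.21, adjusted p = 0.701), Klf5 (-0.59, adjusted p = 0.464), Pou5f1 (0.12, adjusted p = 0.705) and Klf4 (0.11, adjusted p = 0.981) did not pass. For Esrrb the difference was thus already 0.60 at the onset and 0.81 at the end.

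The course of each member was then compared within each treatment. In DMSO, 5 members fell between 0 and 12 h and 8.24% of all genes did. The split of all genes depended on the scaling: with total counts 4.8% were called down and 8.51% up in DMSO, and 1.41% down and 3.25% up in STM2457, with median changes of all genes of 0.18 and 0.12, against 0.04 and 0.00 with TMM. Klf2 fell from a mean of 585.6 ± 77.0 CPM (SD, n = 4) to 245.3 ± 24.7 CPM (log2 -1.26, SE 0.14, edgeR adjusted p = 1.51e-10). Between these ends its means in DMSO were 413.3 CPM at 1 h, 672.7 CPM at 2.3 h, 604.8 CPM at 5.3 h and 415.1 CPM at 8 h. At 1 h the libraries read 566.6, 272.9, 460.6 and 353 CPM, with library scores of -11.2, 45.3, 21.4 and 37.1, so the low mean there went with the high-scoring libraries, and the part of the score in it was not tested. Zfp42 fell from 48.3 ± 1.38 CPM to 22.8 ± 2.51 CPM (-1.08, SE 0.21, edgeR adjusted p = 8.54e-05) and Nanog from 210.0 ± 20.7 CPM to 140.7 ± 18.1 CPM (-0.58, SE 0.12, edgeR adjusted p = 0.000114). Pou5f1 fell from 874.1 ± 46.8 CPM to 643.2 ± 40.1 CPM (-0.44, SE 0.08, edgeR adjusted p = 9.49e-06), a call lost with reads mapped to 1 place (-0.31, adjusted p = 0.243). Tbx3 fell from 28.1 ± 4.14 CPM to 16.8 ± 4.78 CPM (-0.75, SE 0.20, edgeR adjusted p = 0.0041), a call lost without DMSO replicate 3 or 4 (adjusted p = 0.0312 and 0.0753) and with scaling to total counts (-0.61, adjusted p = 0.0228). Klf5 was the only member that rose, from 79.9 ± 14.2 CPM to 162.7 ± 18 CPM (1.03, SE 0.24, edgeR adjusted p = 0.00122), beside 4.76% of all genes, and without DMSO replicate 1 this missed the threshold (0.87, adjusted p = 0.0129). Esrrb had means of 76.7 ± 4.64 CPM and 76.8 ± 11.3 CPM (0.00, SE 0.14), and Tfcp2l1 went from 27.8 ± 7.14 CPM to 32.9 ± 4.97 CPM (0.24, edgeR adjusted p = 0.357). Klf4 did not pass (0.06, edgeR adjusted p = 0.967).

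In STM2457, by contrast, Klf2 went from 853.8 ± 53.7 CPM to 714.7 ± 55.1 CPM, which did not pass the test (-0.26, edgeR adjusted p = 0.259). Tfcp2l1 rose from 27.3 ± 2.46 CPM at 0 h to 39.9 CPM at 5.3 h, 54.2 ± 3.27 CPM at 8 h and 68.1 ± 4.10 CPM at 12 h (log2 1.32, SE 0.18, edgeR adjusted p = 8.46e-08), beside 1.72% of all genes called up. At 8 h its DMSO libraries had a mean of 30.9 ± 1.14 CPM. All 4 Tfcp2l1 libraries at 12 h exceeded those at 0 h, as they did for Klf5, and 8.07% of all genes did so. Only Pou5f1 fell in STM2457 (-0.32, SE 0.08, edgeR adjusted p = 0.00299), beside 3.12% of all genes, and this call was lost without STM2457 replicate 1, 2 or 3, without a filter on low counts, with reads mapped to 1 place and with scaling to total counts. Zfp42 (-0.53, edgeR adjusted p = 0.0883), Klf5 (0.44, adjusted p = 0.275), Nanog (-0.21, adjusted p = 0.289), Esrrb (0.21, adjusted p = 0.378), Tbx3 (-0.20, adjusted p = 0.591) and Klf4 (0.18, adjusted p = 0.929) did not pass. The comparisons at 0 h, at 12 h and within each treatment share libraries, so their values stand side by side and are not independent. Levels at 0 h against unlabelled cells passed the test for none of the 9 members in the edgeR fit over all groups or in DESeq2, and for Klf2 in STM2457 (0.36, edgeR adjusted p = 0.00269) with the library score in the fit. In DMSO 0.569% of genes passed by edgeR and 2 members were at an unadjusted p below 0.05, and in STM2457 0.545% of genes passed and 4 members were at such a p.

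Sox2 had no row, but the long non-coding RNA Sox2ot, whose annotated span on chromosome 3 (34104270 to 34682619, plus strand) contains Sox2 (34650405 to 34652461, plus strand), had 295 to 1459 reads per library. Whether these reads came from Sox2 or Sox2ot cannot be told apart. Their level differed between treatments by 0.04 averaged over the chase (edgeR, adjusted p = 0.57) and by 0.70 at 12 h (SE 0.15, adjusted p = 0.000562), with means of 70.9 CPM in DMSO and 115.0 CPM in STM2457 at 12 h. Over the 4 times without a high-scoring library the difference was 0.35 (SE 0.08, edgeR adjusted p = 0.000238). At 1.5 and 5.3 h, where the score moved with the treatment, it was -0.45 (edgeR, adjusted p = 0.026) and -0.50 (adjusted p = 0.0198), which did not pass.

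Among 24 further genes of the naive circuit, a list of partners and signalling components, 9 were higher in STM2457 averaged over the chase, 1 was lower and 14 did not pass, where 13.8% of all genes were called higher and 12.5% lower. The median difference was 0.21. Nr0b1 (Dax1), a nuclear receptor that partners with Esrrb and Pou5f1, rose most (0.82, SE 0.07, edgeR adjusted p = 1.66e-14), followed by the growth factor gene Fgf4, a target of Pou5f1 and Sox2 (0.52, SE 0.06, adjusted p = 1.82e-11), and Gbx2, a target of Stat3 (0.51, SE 0.09, adjusted p = 1.40e-06). Ctnnb1, which encodes the Wnt effector beta-catenin, was the one lower (-0.20, SE 0.03, edgeR adjusted p = 4.65e-08). At 12 h, 7 of the 24 were higher and none was lower, beside 3.92% and 1.53% of all genes. Of 14 genes linked to exit from the naive state and to the formative state, 13 could be tested, of which 2 were higher, 3 lower and 8 not called, with a median of 0.01. The 2 of 13 higher are near the share of all genes. Tcf15, a bHLH factor that primes cells for exit (0.76, SE 0.06, edgeR adjusted p = 1.28e-19), and Id1, an inhibitor of bHLH factors (0.74, SE 0.11, adjusted p = 1.61e-07), were higher. Lef1, a Wnt-responsive factor, was lower (-0.64, SE 0.09, edgeR adjusted p = 3.31e-08). During the chase in DMSO 11 of these 13 exit and formative genes fell and none rose, beside 8.24% and 4.76% of all genes.

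**Figure D3:**
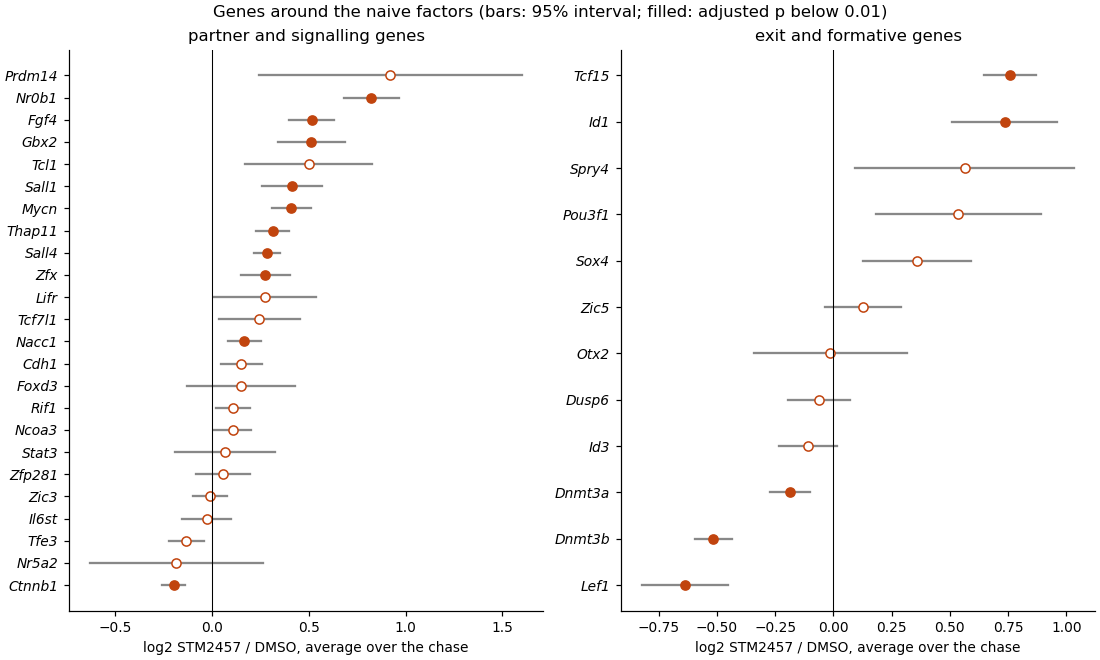
Log2 difference of STM2457 against DMSO averaged over the chase (edgeR, with 95% intervals) for the 24 partners of the naive circuit and the exit and formative genes. Fgf5 is left out because it lies near the detection limit. In all, 9 partners were called higher and Ctnnb1 was called lower, while the exit genes lay on both sides of 0.

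Half-lives were then derived from the T-to-C conversion rates. Since the rate is a share of the covered T positions, it falls as labelled RNA is lost and as unlabelled RNA is made. The overall rate was 1.37% at 0 h in DMSO and 1.28% in STM2457, against 0.0814% and 0.0829% without s4U, and reached 0.279% and 0.223% at 12 h. For Klf2 it was 1.26% in DMSO and 1.18% in STM2457 at 0 h, about the overall value. Rates were less the unlabelled background, divided by the rate at 0 h and fitted by an exponential decay, and 7408 transcripts passed the limits on coverage, half-life and fit, 7 of the 9 members among them. Their medians were 3.19 h in DMSO and 3.45 h in STM2457.

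Pou5f1 had the longest half-life of the 7 members that passed. In DMSO the half-life was 1.48 h for Tbx3, 1.61 h for Klf2, 1.89 h for Zfp42, 1.963 h for Klf5, 2.57 h for Nanog, 2.84 h for Esrrb and 8.68 h for Pou5f1. Only 5.40% of transcripts had a shorter half-life than Tbx3, 7.46% than Klf2, 12.9% than Zfp42 and 14.5% than Klf5, 30.8% had one shorter than Nanog and 39.4% than Esrrb, whereas 97.0% were shorter than Pou5f1. By replicate series (the libraries that share a replicate number, fitted apart), Pou5f1 ran from 7.78 to 11.3 h and the other members that passed from 1.13 to 3.70 h, so the gap between Pou5f1 and the rest was wider than the spread. Of the reads, 95.7% for Pou5f1 and 74.0% for Zfp42 mapped to several places. No half-life was fitted on reads mapped to 1 place, so copies that share these reads may enter both values. From Tbx3 to Esrrb, each member overlapped its neighbour in this order between series. Tfcp2l1 failed the limit on the fit, with a residual standard error of 0.571 in DMSO, and Klf4 failed for lack of reads.

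In STM2457, 5 of the 7 half-lives were longer, against 56.7% of all transcripts. Klf2 stood at 2.20 h, Tbx3 at 2.23 h, Zfp42 at 2.50 h, Nanog at 2.84 h and Klf5 at 2.25 h, while Esrrb was at 2.82 h and Pou5f1 at 7.36 h. Single replicates moved some of these values: without STM2457 replicate 3 Klf5 stood at 1.968 h, close to its 1.963 h in DMSO, and Tbx3 in STM2457 went from 1.69 h without replicate 4 to 3.31 h without replicate 3. The 4 series gave 1.48, 1.55, 1.72 and 1.67 h for Klf2 in DMSO and 2.57, 2.14, 1.97 and 2.32 h in STM2457. These did not overlap (exact permutation test, two-sided, p = 0.0286, the smallest that 4 against 4 allows), as for 3.73% of the 1825 transcripts with all series valid. Across all these transcripts the difference for Klf2 (log2 0.48, SE 0.17, limma adjusted p = 0.285) did not pass, and 0.0548% of transcripts, that is 1, did, while 215 were at an unadjusted p below 0.05. Zfp42 had 1.90 ± 0.36 h in DMSO and 2.54 ± 0.58 h in STM2457 (SD, n = 4, exact permutation p = 0.171). Its unlabelled rate was 0.124% in DMSO and 0.0484% in STM2457. The DMSO rates of Zfp42 at 5.3, 8 and 12 h lay below that DMSO background, at 0.0490, 0.0917 and 0.0547%. With a background shared by the treatments, its half-lives per treatment were 1.97 h and 2.40 h, against 1.89 h and 2.50 h. Nanog had 2.57 ± 0.33 h and 2.89 ± 0.58 h (exact permutation p = 0.314), and Pou5f1 8.89 ± 1.64 h and 7.32 ± 1.20 h (exact permutation p = 0.171). Klf5 (exact permutation p = 0.486), Tbx3 (0.171, exact) and Esrrb (0.886, exact), of which the last pair had 7 valid series of 8, overlapped too, so no difference was detectable for these at 4 series a group. When the amount of label, the rate times the read level, was fitted instead, Klf2 had 1.47 h in DMSO and 1.94 h in STM2457. By that fit Zfp42 had 1.86 h and 2.08 h, Nanog 2.37 h and 2.64 h, and Klf5 1.77 h and 2.13 h. Esrrb had 2.73 h and 2.71 h, and Pou5f1 6.90 h and 5.48 h. Tbx3 failed the limit on the fit there, with a residual standard error of 0.304 in STM2457.

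**Figure D4:**
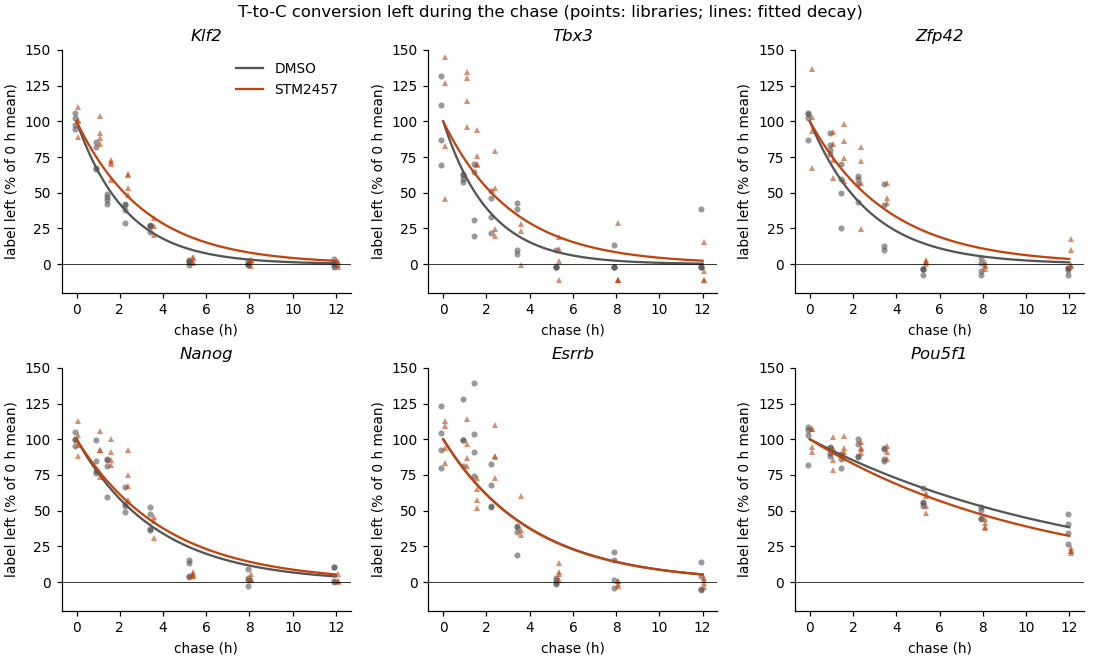
Share of the label at 0 h that was left (percent, background subtracted) against hours of chase for Klf2, Tbx3, Zfp42, Nanog, Esrrb and Pou5f1. Points are libraries, and lines are the fitted exponential decay for DMSO and STM2457. Klf2 libraries in STM2457 lie above those in DMSO at 1.5 and 2.3 h and meet them at 3.5 h.

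The share of label left was compared at each time without a decay model. At 1.5 h the Klf2 libraries retained 45.1, 42.03, 47.02 and 49.2% in DMSO and 58.6, 71.2, 70.3 and 73.2% in STM2457. All STM2457 libraries were above all DMSO libraries, by 22.5 percentage points on average (limma, adjusted p = 0.000943), where 9.48% of the 9004 genes were called. The median gene was itself higher by 8.92 points at that time, and 715 of the 854 calls were higher. With rates scaled to the overall rate the median gene moved by 1.77 points and Klf2 by 17.5 (limma, adjusted p = 0.00664). At 2.3 h the values were 29.1, 38.2, 41.9 and 41.3% in DMSO against 53.1, 48.7, 63.3 and 62.2% in STM2457, a difference of 19.2 points (limma, adjusted p = 0.0102), with 4.44% of genes called and the median gene higher by 3.78 points. At 1 h they were 66.6, 82.2, 85.3 and 67.6% against 103.8, 91.8, 88.4 and 83.9%, which overlapped between the treatments and differed by 16.5 points (SE 4.47, limma adjusted p = 0.0202), with 5.3% of genes called. The call at 1 h was lost without DMSO replicate 1 or 4 or STM2457 replicate 1, and that at 2.3 h without DMSO replicate 1. By 3.5 h Klf2 retained 25.98% in DMSO and 26.4% in STM2457, where 0.877% of genes and no member were called. From 5.3 to 12 h, 0.0% of gene and time pairs were called by limma (0 of 27012), with 230, 139 and 130 genes at an unadjusted p below 0.05. Pou5f1 retained 44.4 to 52.7% in DMSO and 37.9 to 44.1% in STM2457 at 8 h, and 26.6 to 47.7% and 20.5 to 24.1% at 12 h. Its groups did not overlap at either time, with STM2457 lower, and neither difference was called (-7.64 and -15.4 points, limma adjusted p = 1 for both). How many of all genes had groups without overlap in the share of label was not counted. The median gene differed by 0.04 points at 8 h and by -1.30 points at 12 h. The error of the value at 0 h and of the background is not carried in these tests.

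Tbx3 and Esrrb were called at 1 time each. Tbx3 retained 57.8, 62.6, 63.04 and 59.4% at 1 h in DMSO and 130.2, 96.3, 113.9 and 134.5% in STM2457 (58.01 points, SE 14.3, limma adjusted p = 0.0102). Its rates at 0 h rested on few conversions, at 0.95 to 1.79% in DMSO and 0.44 to 1.22% in STM2457, and it is these that the shares are divided by. The call was lost without DMSO replicate 4 or STM2457 replicate 4 (35.1 points, adjusted p = 0.103). Esrrb retained 103.5, 90.8, 139.3 and 74.0% at 1.5 h in DMSO and 64.9, 51.7, 57.5 and 73.0% in STM2457 (-40.1 points, SE 9.80, limma adjusted p = 0.00622), a call lost without DMSO replicate 3. At 2.3 h Esrrb differed by 25.4 points in the other direction, so the sign of its difference was not the same at neighbouring times. The conversion rates themselves were called by limma for no member at any of the 8 times, where 6 of 64 member and time pairs were at an unadjusted p below 0.05, and for 0.00277% of all gene and time pairs (2 of 72120).

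**Figure D5:**
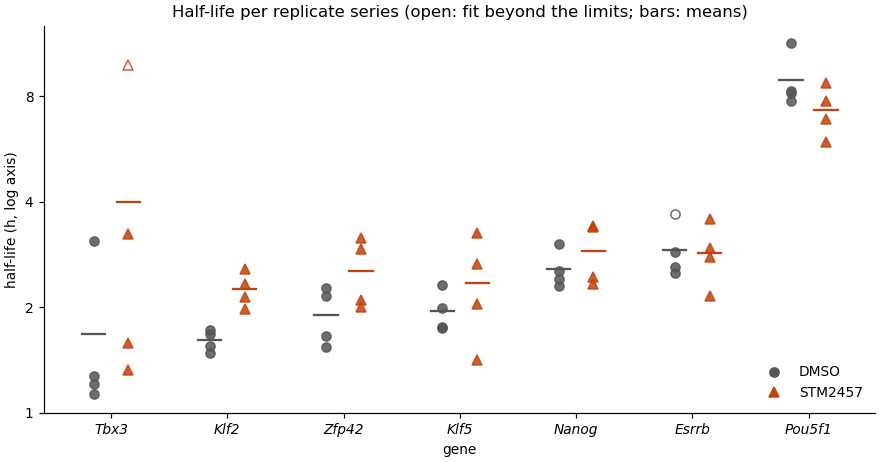
Half-life in hours (log axis) of each member that passed the limits, with 1 point per replicate series in DMSO and STM2457. Bars are means of the series, and open points are fits beyond the limits. The Klf2 series do not overlap between the treatments, those of the other members do, and the means of Pou5f1 lie above those of the remaining members.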

How the data were processed

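The authors mapped 84-nt QuantSeq 3′ reads to GRCm38.p6 with SLAM-DUNK, allowing 100 positions per read, masked variants seen in unlabelled libraries, and deposited 1 table per library of read counts per gene (collapsed 3′ UTR windows, no molecular identifiers) and of conversion rates, fractions of covered T positions read as C. Reads were checked with FastQC 0.11.8 per the submitters' processing notes. Hours of chase come from the study's methods, since the labels give time indices only. The rule was to name all 10 members in every comparison, and of the other lists the most changed called genes. Sox2 had no row, and members left unnamed at a single time did not pass there. The members and lists were chosen with earlier results of these data known.

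Counts of 12659 genes passing edgeR's expression filter were scaled by TMM and fitted with 1 coefficient per group over all 71 libraries (edgeR 4.0.16, quasi-likelihood test, Benjamini-Hochberg adjusted p below 0.01). A half-life was kept where over 100 T were covered, it lay from 0.67 to 18 h and the fit's residual error did not exceed 0.3. Series half-lives, shares and rates were tested with limma 3.58.1 (adjusted p below 0.05). DESeq2 1.42.0 was an alternative. The edgeR script was tested on simulated data: at 12 h it recovered 18% of 1.5-fold and 65% of 2-fold changes among 12457 genes. The 105 replicate pairs all differed by more than sampling noise (lowest chi-square per degree of freedom 2.82). Same-numbered libraries did not deviate together (mean correlation of deviations 0.0097 over 35 pairs), so numbers were not used to pair. Klf4 and Sox2 could not be described further.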

Additional observations from a re-analysis of the deposited data

Results flagged for a closer look

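Within groups of 4, 9 of 167 sets of values held 1 library or series far from the others, about the number that chance gives (1 in 20). Of these, 7 concerned levels. In DMSO, Pou5f1 at 3.5 h read 856.9 CPM in replicate 3, where the others read 778.0 to 788.2. Klf4 at 1.5 h read 6.50 CPM in replicate 2, against 1.16 to 1.68. Esrrb without s4U read 99.2 CPM in replicate 1, against 81.5 to 82.9. Tfcp2l1 at 0 h read 17.2 CPM in replicate 1, against 30.3 to 32.4. In STM2457 at 1.5 h, Tfcp2l1 read 40.3 CPM in replicate 3, against 27.5 to 29.1. In DMSO, Tbx3 at 3.5 h read 48.9 CPM in replicate 4, against 34.1 to 35.5, and Zfp42 at 2.3 h read 46.9 CPM in replicate 4, against 33.3 to 34.9. Of the half-life series in DMSO, replicate 1 of Pou5f1 gave 11.3 h, against 7.78 to 8.27 h, and replicate 3 of Tbx3 gave 3.08 h, against 1.13 to 1.27 h. The difference between treatments itself changed from 0 h to 12 h, by an interaction term, for Klf2 (log2 0.999) and for Tfcp2l1 (1.08).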

How the results depend on the processing

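The count of members called over the chase (6) was unchanged under every alternative, and that at 12 h (6) was 5 to 6. With the library score in the fit (chosen after seeing the data), 4 members were called at 0 h, 4 at 1 h, 3 at 2.3 h, 2 at 5.3 h, 2 without s4U and 1 at 0 h against no s4U in STM2457, and 1180 genes at 12 h (main 690), 284 for the interaction (140) and 1112 for the chase in STM2457 (613). With only the groups compared, 3 members were called at 0 h, 0 at 1 h, 3 at 2.3 h and 1056 genes at 12 h. DESeq2 called 2 members at 0 h and 2 at 5.3 h, where the member added, under DESeq2 and the score alike, was Pou5f1, lower in STM2457. The average over 4 times (chosen after seeing the data) called 1710 genes against 3329. Scaling to total counts called 0 members at 3.5 h, 2 at 8 h and 1 for the chase in STM2457, and no filter or reads mapped to 1 place called 1 at 3.5 h and 1 for that chase. Leaving out 1 replicate gave 0 to 1 members at 0 h and without s4U, 0 to 2 for the interaction, at 1 h and at 3.5 h, 2 to 4 at 8 h, 1 to 2 for the chase in STM2457, and 3 to 7 shares of label left, with 91 to 115 genes for the interaction, 997 to 1724 for the chase in DMSO and 237 to 747 in STM2457. With the replicate block, for which the deviations gave no ground, 2 members were called at 0 h and no other count of members changed. The cause of these shifts was not tested. No called direction reversed. The half-life ratio of Esrrb, near 0 (log2 -0.01), changed sign with pooled conversions (0.06), a free value at 0 h (0.11) and without DMSO replicate 1 or 4 or STM2457 replicate 2 (0.01 to 0.12), and without STM2457 replicate 3 that of Klf5 was 0.00. For named members 320 of 341 alternative values of read count and 52 of 59 of share left kept their side of the threshold. Half-life ratios were not set against a threshold. Of these, 102 of 102 lay within the SD between replicate series of the reported log2 ratio, which a change of sign can also meet. Only settings in which a member passed the limits were counted. Esrrb and Tbx3 failed with a residual standard error of at most 0.15, and Tbx3 failed with the rate times the read level. With the limit of 0.15 the ratios kept are the reported ones by construction, so this count is no strict check. Depth limits Klf4, Tfcp2l1 and Tbx3 most, and pooling conversions has no series to test.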
